A study of Mus musculus with 11 samples.

Results

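New MyoD sites where H3K4me1 was gained are the binding sites that C2C12 myotubes had and myoblasts lacked, in chromatin where the histone mark was also called in myotubes alone. They were chosen by the peak and domain calls themselves: MyoD peaks of myotubes with no base on a MyoD peak or an H3K4me1 domain of myoblasts and at least 1 bp on an H3K4me1 domain of myotubes. They numbered 9396 of the 39700 MyoD peaks of myotubes (23.7%) and 35.9% of the 26173 peaks that were new in myotubes; here they are called gained sites. The other peaks were 13527 kept sites, which touched a MyoD peak of myoblasts, 12678 premarked sites, which were new but lay in H3K4me1 of myoblasts, and 4099 unmarked sites, which were new and had H3K4me1 at neither stage.

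C2C12 is a mouse muscle cell line of the C3H strain that divides as myoblasts and fuses into myotubes when serum is withdrawn. The binding data came from chromatin immunoprecipitation with sequencing (ChIP-seq): MyoD (antibody C-20) and H3K4me1 (ab8895) in myoblasts growing in 10% fetal bovine serum, and MyoD, MyoG (M-225) and H3K4me1 in myotubes after 48 h in 2% horse serum with insulin, transferrin and selenium. Polyadenylated RNA was sequenced from cells 4 h into differentiation in 4 groups: RNAi against an enhancer RNA of Myod1 (DRRi) with RNAi against GFP as its control (GFPi), and overexpression of that RNA (pHAN_DRR1.2) with overexpression of GFP as its control (pHAN_GFP). Each group held 1 sample, so differences between groups cannot be set against replicate error, and the RNA and the myotube peaks come from different times of differentiation.

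MyoD and MyoG are basic helix-loop-helix transcription factors that bind DNA at E-boxes (CANNTG) together with E proteins. MyoD is present in dividing myoblasts, whereas MyoG appears when they commit to differentiation, and both bind genes of the contractile apparatus. Monomethylation of histone H3 at lysine 4 (H3K4me1) is a mark typical of enhancers and of the flanks of promoters.

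The sequences below show promoters that carried a gained site at the gene start, since these are the members that could be joined to reference sequence. Of the genes in the expression tables, 7061 could be matched to a single RefSeq promoter by symbol and by a locus length within 100 bp, and 57 of them had a gained site on the start (0.807%). Among the muscle gene lists used below there were 6 such genes. For 5 of them the stretch from 250 bases before the start to 30 bases after it is printed 5′ to 3′ on the strand of the gene, from RefSeq for GRCm38.p6. Capitals mark every CANNTG, and the reference strain is not the strain of C2C12. Their intervals were chr8:123894746-123895025 on the minus strand for Acta1, skeletal muscle alpha-actin, and chr7:19410844-19411123 on the plus strand for Ckm, muscle creatine kinase. The interval was chr6:24597521-24597800 on the plus strand for Lmod2, an actin nucleator of the thin filament, and chr7:140900417-140900696 on the minus strand for Cox8b, a muscle subunit of cytochrome c oxidase. It was chr2:114052846-114053125 on the minus strand for Actc1, cardiac alpha-actin.
Acta1: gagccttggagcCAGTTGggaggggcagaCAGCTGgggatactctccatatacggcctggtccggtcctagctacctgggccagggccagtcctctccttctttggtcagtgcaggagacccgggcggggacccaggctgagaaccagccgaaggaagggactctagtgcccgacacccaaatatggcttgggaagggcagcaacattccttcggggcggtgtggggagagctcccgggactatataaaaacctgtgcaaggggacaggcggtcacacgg
Ckm: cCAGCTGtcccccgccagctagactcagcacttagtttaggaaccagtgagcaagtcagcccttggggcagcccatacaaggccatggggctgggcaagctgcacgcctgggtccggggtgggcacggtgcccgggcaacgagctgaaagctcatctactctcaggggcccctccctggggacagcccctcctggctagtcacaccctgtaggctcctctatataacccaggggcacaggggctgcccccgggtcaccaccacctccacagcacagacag
Lmod2: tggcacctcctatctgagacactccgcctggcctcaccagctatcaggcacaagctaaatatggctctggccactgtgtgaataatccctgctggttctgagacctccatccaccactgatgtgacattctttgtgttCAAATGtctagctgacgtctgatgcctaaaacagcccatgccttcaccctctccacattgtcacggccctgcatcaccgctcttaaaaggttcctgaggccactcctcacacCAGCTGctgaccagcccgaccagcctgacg
Cox8b: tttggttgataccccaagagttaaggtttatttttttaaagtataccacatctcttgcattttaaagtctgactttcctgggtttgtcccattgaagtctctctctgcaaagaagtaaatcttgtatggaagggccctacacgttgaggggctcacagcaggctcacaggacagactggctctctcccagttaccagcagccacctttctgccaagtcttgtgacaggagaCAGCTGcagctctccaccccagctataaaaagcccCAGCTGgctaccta
Actc1: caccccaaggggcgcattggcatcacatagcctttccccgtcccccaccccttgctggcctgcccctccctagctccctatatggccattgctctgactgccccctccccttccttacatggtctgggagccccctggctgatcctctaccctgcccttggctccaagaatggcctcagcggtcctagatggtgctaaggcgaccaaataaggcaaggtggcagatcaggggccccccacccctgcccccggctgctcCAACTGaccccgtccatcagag

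The first 4 hold CAGCTG. It begins at base -221 from the start in Acta1, at -249 in Ckm, at 1 in Lmod2, and at -19 and 17 in Cox8b. Actc1 has a single E-box in its window, CAACTG at base 9, and no CAGCTG. The gained peaks on these starts scored 3100 at Acta1, 619 at Cox8b, 480 at Actc1, 431 at Lmod2 and 175 at Ckm, and each touched a MyoG peak. At Acta1 and Actc1 the start itself lay outside the H3K4me1 domain that the peak overlapped most. On mm9 the Acta1 start was at 126418636 and that domain began at 126419001. For Actc1 the positions were 113878547 and 113879001. The remaining gene of the 6, Mybpc1, is not printed. Its promoter has CAGCTG at base -87, and its gained peak scored 497 and touched a MyoG peak. The score is the authors' peak score, at least 60 for every listed peak. Over the whole windows of 300 bases, from 250 before to 50 after the start, CAGCTG was found in 19 of the 57 promoters with a gained site (33.3%). The share was 14.6% of the 7061 matched promoters, 12.01% of those with no MyoD peak at the start, and 16.3% of all 32851 promoters in the table. CAGCTG reads the same on both strands, CAGGTG and CACCTG are each other's reverse complement, and each is a case of CANNTG. At least 1 of the 3 was found in 59.6% of promoters with a gained site, in 30.2% of matched promoters and in 32.9% of all promoters. Kept sites at a start (282 promoters) had CAGCTG in 41.5% and premarked sites (322 promoters) in 32.9%. The median share of G and C bases was 59% in promoters with a gained site, 60.8% with a kept and 60.7% with a premarked site. It was 55.3% in matched promoters and 54.3% in those with no MyoD peak at the start. The part of base composition in the E-box shares was not tested. A match of letters is a description and not a binding site, and sequences under the other gained peaks were not analysed here.

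Gained sites rarely lay on the start of a matched gene. Of all gained sites, 0.596% covered a start of a matched gene, beside 2.03% of kept, 2.51% of premarked and 3.85% of unmarked sites. Only the 7061 matched genes of 20368 were looked at, so sites on other starts are not counted. Of all gained sites, 53.0% overlapped a locus of the expression tables and 9.41% lay over 100 kb away. Within 10 kb of a locus lay 67.2% (95% interval 66.2% to 68.2%). Intervals are exact Clopper-Pearson, as for every share here, and cover counting error only. For premarked sites 59.7% were inside and 74.3% within 10 kb, and the shares were 51.7% and 64.9% for kept sites and 51.7% and 64.8% for unmarked sites. Loci are intervals of the authors' tables on mm9 with no strand or exons, so exon and intron positions were not used here. Members were spread over the genome, and their share of the MyoD peaks of a chromosome ran from 19.8% on X to 25.8% on 7.

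MyoD scores of gained sites had a median of 159 (quartiles 93.1 and 335) and a highest value of 3224. These scores entered the choice of members only through the authors' threshold, and they are given as a description. The median was 404 for kept, 129 for premarked and 97.7 for unmarked sites. Scores of 3100 or more were held by 21 gained sites (0.223%), beside 530 kept, 10 premarked and 0 unmarked sites. Of the 21 gained sites, 17 tied at exactly 3100. What this tie stands for is not known, so the order of scores from 3100 upward is uncertain. Gained peaks had a median width of 719 bp. The rule has sharp edges: 28 gained sites had 50 bp or less on their myotube domain (median score 102.2) and 59 unmarked sites missed a myotube domain by 50 bp or less (median 128). On the myoblast side, 54 gained sites lay within 50 bp of a myoblast peak or domain (median score 134) and 113 premarked sites had 50 bp or less on a myoblast domain (median 103).

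Scores above 3100 were found at 4 gained sites. The highest score, 3224, was at chr1:155550291-155552804, at 5495 bp from Rgs8, a regulator of G-protein signalling. Its domain of 12800 bp held 718 ChIP reads and 176 control reads. The next, 3203 at chr1:136203662-136204683, lay inside Ppfia4, a liprin, in a domain that began beyond the upper end of Myog. A site of 3188 at chr8:64399996-64401119 lay 5766 bp from Ddx60, and a site of 3104 at chr8:86271140-86273420 lay 5929 bp from Cd97. A further 17 sites tied at 3100, among them the site on the start of Acta1 and the site inside Lmod2. Of these 17, the 6 with the highest H3K4me1 fold of their domain are named here. Those of Cbfa2t3, Rgs14 and Slco2b1 lay inside the gene, and that of Josd2 lay 100 bp away. The site nearest Stim2, which encodes a calcium sensor of the endoplasmic reticulum, lay 20682 bp away. The last had 1700016C15Rik as its nearest locus, 82966 bp away. All 21 sites from 3100 upward touched a MyoG peak, and for the 10 named first by score and then by fold the MyoG scores ran from 552 to 3079.

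MyoG was measured in its own library and was not used to choose the members. A MyoG peak touched 6091 of the 9396 gained sites, 64.8% (63.9% to 65.8%), where 66.9% of all MyoD peaks of myotubes touched one. The share was 80.8% for kept, 60.4% for premarked and 45.6% for unmarked sites. MyoG overlap went with the MyoD score in each class. Among gained sites it was 38.9% at MyoD scores from 60 to under 100 (n = 2703), 59.6% from 100 to under 200 (n = 2854), 81.5% from 200 to under 500 (n = 2322), 94.0% from 500 to under 1000 (n = 1008) and 97.8% from 1000 upward (n = 509). In the lowest band the share was 47.1% for kept, 36.0% for premarked and 31.1% for unmarked sites. The interval of gained sites there, 37.1% to 40.8%, overlapped that of premarked sites, 34.7% to 37.4%, and lay between those of kept and unmarked sites. From 500 upward the values of gained, kept and premarked sites lay within 3 percentage points of each other. One library per factor allows no test of these differences, and sites of a library are not replicates.

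**Figure D1:**
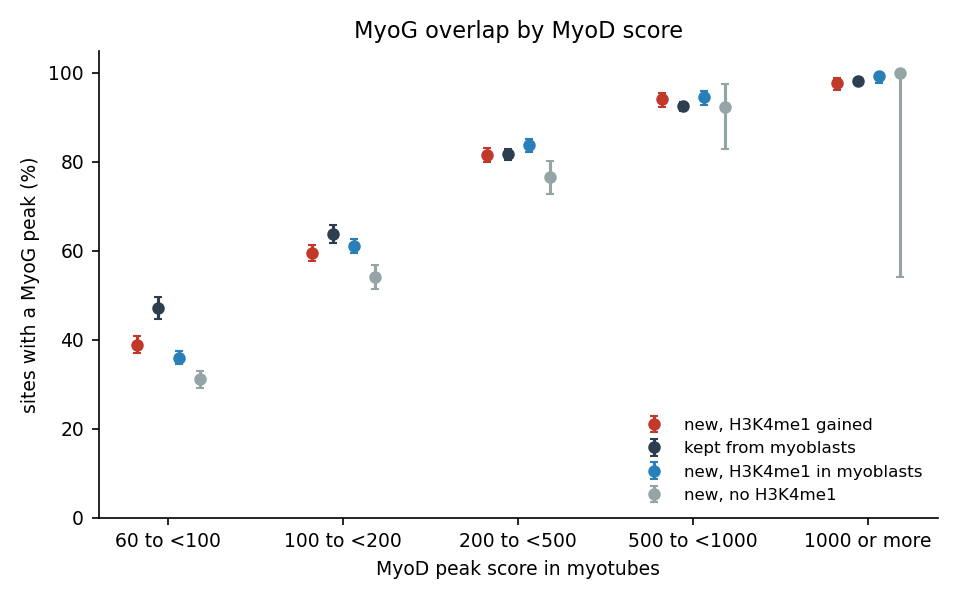
Share of myotube MyoD sites that touched a MyoG peak (vertical axis, percent) in bands of MyoD peak score (horizontal axis), for the 4 classes of site, with exact 95% intervals as bars. Gained sites run from 38.9% in the lowest band to 97.8% in the highest, and the classes differ most in the lowest band.

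Gained sites with a MyoG peak had a median MyoD score of 224 (n = 6091) and those without one had 100 (n = 3305). Their domains had a median fold of 2.87 with MyoG and 2.77 without, and a median length of 3400 bp and 3000 bp. MyoG covered a median of 74.5% of the width of the peaks it touched. Over the 6091 shared sites the MyoD and MyoG scores had a Spearman correlation of 0.65, given as a description across sites that share both libraries. Gained sites without MyoG were a median of 8950 bp from the nearest MyoG peak, and 323 of them (9.77%) had one within 1 kb.

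Gained sites occupied 8319 myotube H3K4me1 domains, with a median length of 3000 bp, 96 ChIP reads, 37 control reads and a deposited fold of 2.79, the ChIP over control ratio after scaling. For all 70587 myotube domains the medians were 2400 bp, 73 reads, 29 reads and 2.70. Most of these domains were wholly new: 6299 touched no myoblast domain and had medians of 2400 bp and a fold of 2.69. The other 2020 (24.3%) touched a myoblast domain elsewhere along their length, with medians of 7000 bp and 3.07, and held 2370 of the gained sites (25.2%). At those sites the mark was new under the peak while the same stretch of marked chromatin had already been called nearby in myoblasts. Domains that touched no myoblast domain and held no MyoD peak (15380) were shorter and weaker, with 1800 bp and a fold of 2.29. Domains under kept sites had 4400 bp and 3.32, and those under premarked sites 4400 bp and 3.22. Domain calls were part of the rule, so these values carry no test. Inside the domains of each stage 9555012 ChIP reads of myoblasts and 8842751 of myotubes were counted by the authors, which are not library depths.

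**Figure D2:**
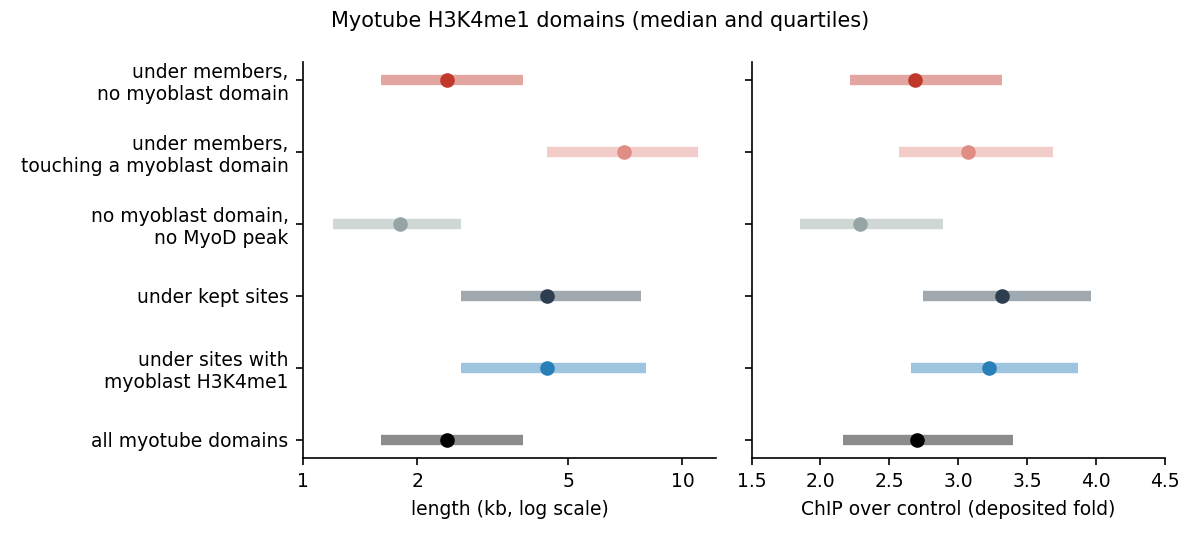
Length (left, kb, log axis) and deposited ChIP over control fold (right) of myotube H3K4me1 domains, with the median as a point and the quartiles as a bar. Domains under gained sites with no myoblast domain have medians of 2.4 kb and 2.69, and domains of the same kind without a MyoD peak have 1.8 kb and 2.29.

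Most gained peaks lay wholly inside their domain. Of the 9396, 7686 (81.8%) were wholly inside it. Domains of 1 kb or more with a single gained site gave 7173 cases. The centre of the peak fell in the middle 50% of the domain in 60.8% of them. Centres spread evenly along a domain would do so in 50%. MyoD score and domain fold had a Spearman correlation of 0.15 over gained sites, a description only. Among domains over 400 bp, MyoG overlap was 57.2% in those up to 1 kb (n = 507) and 68.4% in those over 4 kb (n = 3671). The median MyoD score was 122 and 192 in the same bands. Shorter domains are not part of this comparison. Of the 22400 myotube domains that touched no myoblast domain, 28.1% held a gained site.

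Many gained sites lay within 10 kb of an H3K4me1 domain of myoblasts. The nearest myoblast H3K4me1 domain was a median of 6154.5 bp away, and 63.6% of gained sites had one within 10 kb, beside 50.8% of unmarked sites. The nearest myoblast MyoD peak was a median of 26460 bp away, and 23.6% of gained sites had one within 10 kb, beside 13.5% of unmarked sites. Distances depend on how many domains or peaks a list holds and on their length, so domains and peaks are not compared here. A kept site lay within 10 kb of 21.1% of gained sites, of 39.3% of premarked sites and of 10.9% of unmarked sites.

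Part of the gained sites lay near another gained site. The next gained site was a median of 21384 bp away, and 36.5% had another within 10 kb. That share depends on how many sites a class holds and is not set beside other classes here. Of the domains, 7455 held a single gained site, 713 held 2, 107 held 3, 34 held 4, 8 held 5, and a single domain each held 8 and 10. Domains with 3 or more were long (median 10600 bp, fold 3.40), beside 2800 bp and 2.74 for those with a single gained site. Another myotube MyoD peak of any class lay within 100 bp of 172 gained sites (1.83%).

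The domain with the most gained sites, 10, was at chr8:125159201-125197800 in Cbfa2t3, a transcriptional corepressor. It was 38600 bp long with 1934 ChIP and 383 control reads, a fold of 4.96. Its gained sites scored from 70.7 to 3100, and 9 of the 10 touched a MyoG peak. Cbfa2t3 itself was listed at 0 FPKM in DRRi, 0.0155 in GFPi, 0.133 in pHAN_DRR1.2 and 0.0299 in pHAN_GFP at 4 h, under 1 FPKM in every library.

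The domain over Myog, the gene of the second factor studied, held 8 gained sites. It spanned chr1:136168201-136191600, 23400 bp, with 1312 ChIP reads, 324 control reads and a fold of 3.98, and it took in 2 short myoblast domains that lay next to the gene. Its gained sites lay on both sides of the gene, from 15838 bp away on the lower side to 1658 bp beyond the upper end, with scores from 60.6 to 636. Of these 8, 3 touched a MyoG peak. The site on the lower end of the locus and another below it were kept sites, with scores of 3100 and 1007. The next domain, chr1:136192401-136211200, touched no myoblast domain and held 5 gained sites inside Ppfia4, with scores of 332, 1376, 73.1, 3203 and 167. In this second domain 4 of the 5 touched a MyoG peak. Within 10 kb of the Myog locus there were 6 gained, 2 kept and 1 premarked sites.

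**Figure D3:**
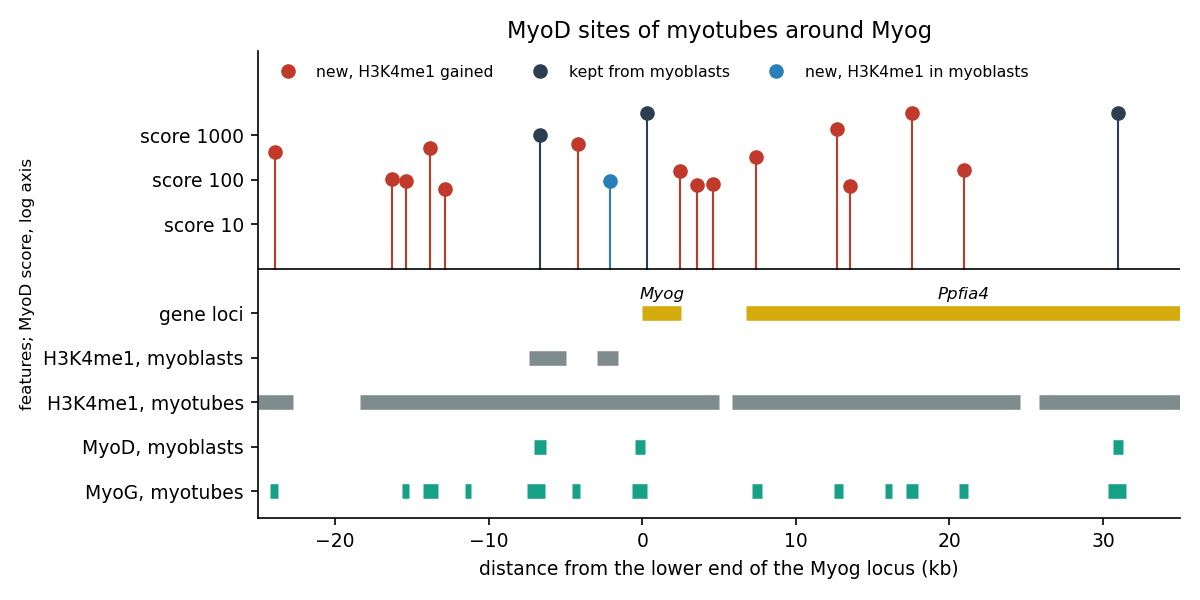
MyoD sites of myotubes around Myog, as points at the log of the peak score and coloured by class, with gene loci, H3K4me1 domains of both stages, myoblast MyoD peaks and myotube MyoG peaks below (horizontal axis, kb from the lower end of the Myog locus). Myotube domains cover most of the stretch, while myoblast domains are limited to 2 short intervals. Gained sites lie outside these by the rule that chose them.

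Of the 8 domains with 5 gained sites, which include the Ppfia4 domain, the one with the most ChIP reads was chr15:76833401-76871600. It covered 38200 bp with 2721 ChIP and 647 control reads. Its 5 gained sites scored from 144 to 1153, and 4 of them touched MyoG. They lay in or near the locus that the authors' tables give for Apol6 and, with the same ends, for Mb, the gene of the oxygen carrier myoglobin. Mb was listed at 0.0744 FPKM in DRRi, 0.298 in GFPi, 2.46 in pHAN_DRR1.2 and 1.30 in pHAN_GFP.

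A gained site lay within 10 kb of 4653 of 20368 genes (22.8%), and 2345 of these (50.4%) also had a kept site there. Of the 4653 genes, 2934 had a single gained site, 950 had 2 and 769 had 3 or more. Among the 10 genes with the most, Kcnq1 (19 sites), a potassium channel gene, and Casz1 (15), a zinc finger factor, were under 1 FPKM in all 4 libraries, as was Flrt1 (11). Arid1b (15), a subunit of the SWI/SNF chromatin remodeller, was at 6.51 FPKM in DRRi, 4.94 in GFPi, 5.37 in pHAN_DRR1.2 and 5.31 in pHAN_GFP. The rest were Cbfa2t3, Mad1l1, Snx29 and Celf2 with 12 each, and 1700011I03Rik and Macrod1 with 11. Macrod1 has the same locus as Flrt1 and so the same sites. Long loci collect more sites: Celf2 spans 857082 bp and had 1.37 gained sites per 100 kb with 10 kb at each end, beside 12.8 for Cbfa2t3 and 26.6 for Myog.

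Genes of the contractile apparatus had the highest share with a gained site nearby among 10 gene lists. Of 53 sarcomere genes 41 had a gained site within 10 kb (77.4%, 63.8% to 87.7%), while 31 (58.5%) had a kept site and 29 (54.7%) a premarked site. In the other 9 lists fewer genes had a gained than a kept site. Of 20 myogenic regulators 13 had a gained and 15 a kept site. For excitation, synapse and muscle metabolism the counts were 20 and 26 of 39, and for IGF and growth factor signalling 18 and 23 of 30. The fusion and adhesion genes had 14 and 30 of 39, and the inhibitors of differentiation 10 and 20 of 26. Extracellular matrix and fibroblast genes had 3 and 16 of 26, cell cycle exit genes 6 and 9 of 16, cell cycle genes 8 and 12 of 29, and housekeeping genes 1 and 5 of 14. Over all genes 22.8% had a gained and 29.8% a kept site. Sarcomere loci had a median length of 22418 bp, beside 19072 bp over all genes.

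**Figure D4:**
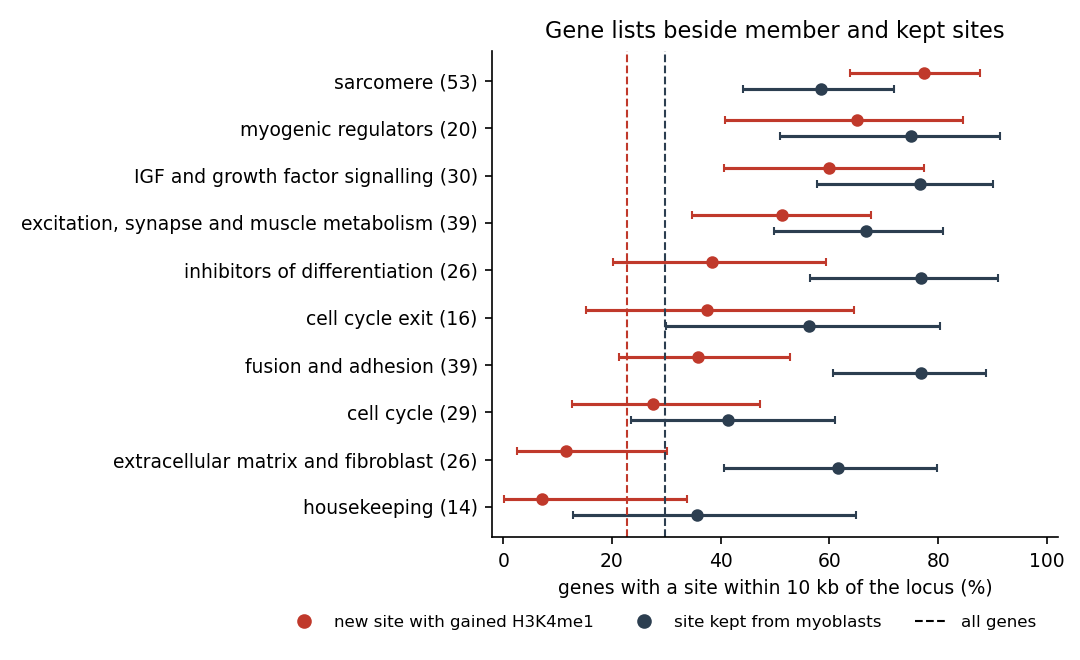
Share of the genes in each list with a gained site (red) or a kept site (dark) within 10 kb of the locus, with exact 95% intervals and the list size in parentheses. The dashed lines stand for all genes, 22.8% and 29.8%; the sarcomere list has 77.4% with a gained site and 58.5% with a kept site.

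In all, 17 sarcomere genes (32.1%) had a gained site and no kept site, beside 11.3% of all genes. Actn2, the gene of the Z-disc protein alpha-actinin 2, had 6 gained sites and no other MyoD site within 10 kb. Their scores ran from 60.2 to 2216, and 4 touched a MyoG peak. The nearest myoblast domain was at least 17348 bp from each of them. Lmod2 had 5 gained sites with scores of 304, 151, 431, 3100 and 354 along the chromosome, again with no other MyoD site, and 4 of them touched MyoG. The promoter printed above is under the site of 431, and the site of 3100 lies inside the gene. Csrp3, which encodes muscle LIM protein, had 2, of 1836 and 63.6. Myl2, a regulatory light chain, had 4, of 1065, 61.3, 64.6 and 217. Myoz2, a Z-disc gene, had 2, of 73.4 and 352, with no other MyoD site nearby.

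The myosin heavy chain genes were covered unevenly. Myh3, the embryonic heavy chain, had 4 gained sites of 427.6, 103.6, 1518 and 844 and 3 premarked sites. Myh7b had 6, with a highest score of 2872, and Myh2 had 3, while Myh1, Myh4, Myh6, Myh7 and Myh8 had 1 each. Neighbouring genes of these clusters can share a site. Among the other thick filament genes, Mybpc1, a myosin binding protein, had 8 gained sites scoring from 80.5 to 738, the most of any sarcomere gene. Myl1, an essential light chain, had 6 scoring from 67.4 to 1165. For the thin filament, Actc1 had 4, of 294, 326, 480 and 117, and Acta1 had 1, the site on its start. Over the list 101 gained sites were counted, with a median score of 188, and 70 of them (69.3%) touched MyoG.

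Outside the sarcomere, Scn4a, the sodium channel of muscle, had 5 gained sites scoring from 152 to 381, all with MyoG and none with a kept site nearby. Ckm had 2, of 130 and 175, the second on the promoter shown above, and Casq2, a calcium-binding protein of the sarcoplasmic reticulum, had 2, of 79.1 and 1119. Jam3, an adhesion molecule, was the single fusion and adhesion gene with gained sites (3) and no kept site. Of the regulators, Myod1 had 2, of 499 and 409, Rbm24, an RNA-binding splicing regulator, had 2, of 828 and 82.8, and Mef2a had 1, of 304.

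Of the genes near a gained site, 1446 were under a mean of 1 FPKM in both RNA experiments, so their changes were not counted. FPKM is the authors' length- and depth-scaled expression value. Gained sites lay near 29.5% of the 10577 genes at or above that level in the RNAi experiment and near 15.7% of the 9791 below it. Of the 41 sarcomere genes near a gained site, 20 were below it in both experiments at 4 h, among them Actn2, Myl2, Csrp3 and Lmod2. Muscle markers were present in the RNA: 7 of 7 reached 1 FPKM in every library, with summed levels of 402 FPKM in DRRi, 475 in GFPi, 1061 in pHAN_DRR1.2 and 840 in pHAN_GFP. Endothelial, adipocyte and neural markers reached it in 0 of 4 genes each, at sums from 0.0217 to 0.445 FPKM. Of the blood markers 1 of 4 did, Cd68, with sums from 1.65 to 2.52, and Ptprc was at 0 in 3 libraries and 0.0164 in pHAN_GFP. Bone markers summed to 3.42 in DRRi, 9.54 in GFPi, 16.2 in pHAN_DRR1.2 and 14.7 in pHAN_GFP. Of that sum Dmp1, which itself had a gained site nearby, was 2.26 in DRRi, 8.94 in GFPi, 15.3 in pHAN_DRR1.2 and 13.8 in pHAN_GFP, while Ibsp was at 0 in 3 libraries. The part of these cells in the results was not tested.

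As a group, genes near gained sites had shares of higher and lower genes in DRRi close to those of all genes. Changes are on the log2(FPKM + 1) scale. In DRRi 144 of 3117 such genes (4.62%) lay above the 1.5-fold limit and 112 (3.59%) below it, against 4.66% and 3.5% of all 10577 genes. At a 2-fold limit 18 were higher and 29 lower (0.577% and 0.930%), against 0.898% and 0.804%. The median change was 0.03, beside 0.02 for all genes. The authors' deposited table called 17 of these genes higher and 25 lower in DRRi at a q-value under 0.05 (0.545% and 0.802%), beside 0.643% and 0.577% of all genes. With pHAN_DRR1.2 the shares of 3171 genes past the 1.5-fold limit were 1.42% above and 0.978% below, against 1.38% and 0.654% of all 10699 genes. At 2-fold they were 0.473% and 0.126%, against 0.318% and 0.0841%. The authors' deposited table called 39 of these genes higher and 27 lower (1.23% and 0.851%), beside 1.03% and 0.542% of all genes.

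Genes near gained sites, with and without a kept site within 10 kb, differed most in shares lower in DRRi and higher with pHAN_DRR1.2. The intervals of the other shares overlapped. Genes with kept and no gained sites are not given here. In DRRi 4.30% of 1441 genes with gained and no kept sites were 1.5-fold or more higher (3.31% to 5.48%) and 2.36% lower (1.64% to 3.28%), beside 4.66% and 3.5% of all genes. For 1676 genes with both kinds of site they were 4.89% (3.91% to 6.04%) and 4.65% (3.70% to 5.77%). With pHAN_DRR1.2 0.549% of 1456 genes with gained and no kept sites were higher (0.238% to 1.08%) and 0.481% lower (0.194% to 0.988%), beside 1.38% and 0.654% of all genes. For 1715 genes with both kinds of site they were 2.16% (1.52% to 2.96%) and 1.40% (0.899% to 2.08%). Genes with 3 or more gained sites were higher in DRRi in 3.97% of 504 cases (2.44% to 6.06%) and lower in 5.16% (3.40% to 7.47%), and both intervals hold the share of all genes. With pHAN_DRR1.2 2.70% of 519 were higher (1.48% to 4.48%) and 0.385% lower (0.0467% to 1.39%), where 1.38% and 0.654% of all genes were. Genes share sites and libraries, so these intervals describe counting error and no test was made.

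Of the 41 sarcomere genes near a gained site, with no limit on their level, 8 were 1.5-fold or more lower and 1 higher in DRRi, and 15 were higher and 1 lower with pHAN_DRR1.2. Over all 20368 genes without a limit 2.62% were higher and 1.89% lower in DRRi, and 0.800% and 0.408% with pHAN_DRR1.2. The median change of the 41 was -0.06 in DRRi and 0.45 with pHAN_DRR1.2, where that of all genes was 0 in both. The authors' deposited table calls 3 of the 41 lower in DRRi, Mylpf, Myh3 and Ttn, and 0 higher, and with pHAN_DRR1.2 it calls 14 higher and 1 lower. Of the 12 sarcomere genes with no gained site 3 were lower in DRRi and 2 higher with pHAN_DRR1.2. A mean of 1 FPKM or more was reached by 15 of the 41 in DRRi and by 21 with pHAN_DRR1.2. Some pass that limit only through the library in which they were high: 4 of the 8 lower in DRRi had under 1 FPKM there, and 2 of the higher genes with pHAN_DRR1.2 had under 1 FPKM in pHAN_GFP. The RNA was taken 4 h into differentiation and the sites at 48 h, and the part of the level of differentiation in these differences was not tested.

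**Figure D5:**
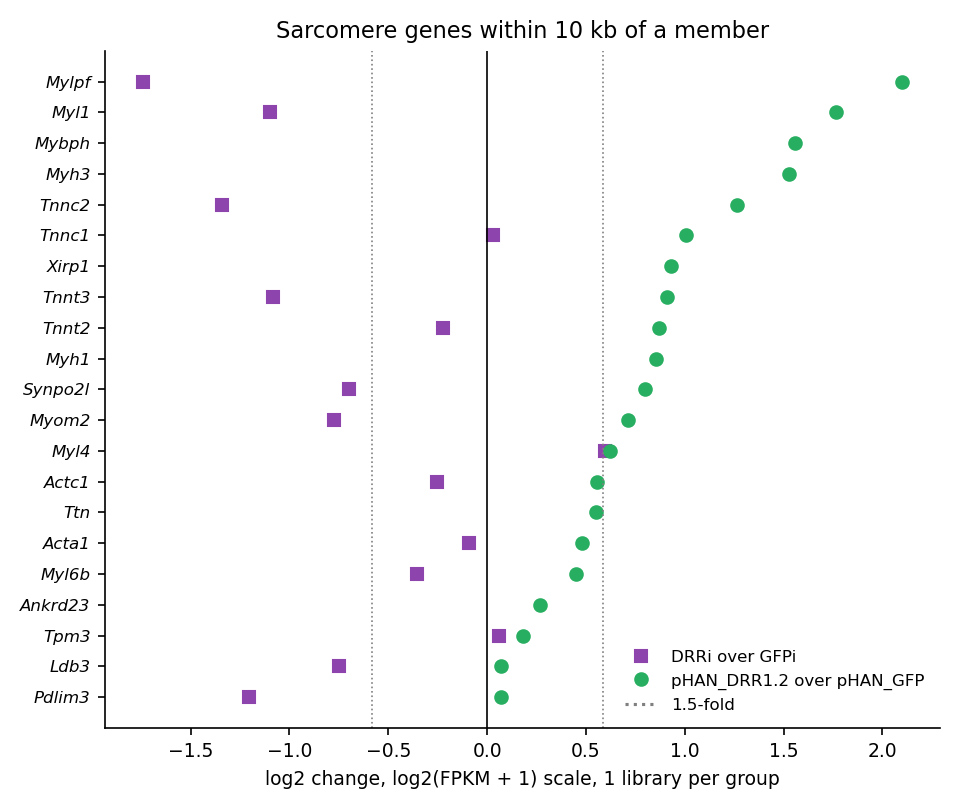
Change of the 21 sarcomere genes that lay within 10 kb of a gained site and had a mean of 1 FPKM or more, as log2 on the log2(FPKM + 1) scale (horizontal axis), for DRRi over GFPi (squares) and pHAN_DRR1.2 over pHAN_GFP (circles), 1 library per group. Values run from 0.07 to 2.10 with pHAN_DRR1.2 and from -1.74 to 0.59 in DRRi. Mybpc1, which the authors' deposited table calls lower with pHAN_DRR1.2, changed by -0.93 but had a mean under 1 FPKM and is not shown. Genes without a square were under a mean of 1 FPKM in the RNAi experiment. Some genes shown pass that limit only through the library in which they were high.

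Among the light chains, Mylpf, the fast regulatory light chain, was at 1.5 FPKM in DRRi, 7.34 in GFPi, 89.2 in pHAN_DRR1.2 and 20.1 in pHAN_GFP. It had the largest change of any gene near a gained site with pHAN_DRR1.2, 2.10, and a change of -1.74 in DRRi. The authors' deposited table calls both, with a q-value of 0.0248 in DRRi and a q-value listed at 0 in pHAN_DRR1.2. Its single gained site, inside the gene, scored 156. Myl1 was at 0.556, 2.33, 32.9 and 8.97 FPKM in the same order, changes of -1.10 and 1.77. The second of these was called in the authors' deposited table, at a q-value of 4.15e-07.

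Among the heavy chain and binding protein genes, Myh3 was at 0.0558 FPKM in DRRi, 0.410 in GFPi, 4.79 in pHAN_DRR1.2 and 1.01 in pHAN_GFP. Its change with pHAN_DRR1.2 was 1.52, at a q-value of 6.01e-13 in the authors' deposited table. Mybph, a myosin binding protein, was at 0.210, 0.801, 6.38 and 1.51 FPKM, a change of 1.56 with pHAN_DRR1.2. Mybpc1, with its 8 gained sites, went the other way: it was at 0.243 FPKM in pHAN_DRR1.2 and 1.37 in pHAN_GFP, and the authors' deposited table calls it lower at a q-value of 3.23e-06, although its mean is under 1 FPKM.

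Of the troponins, which hold the calcium switch of the thin filament, Tnnc2 was at 1.16 FPKM in DRRi, 4.49 in GFPi, 23.7 in pHAN_DRR1.2 and 9.26 in pHAN_GFP. Its changes were -1.34 and 1.26, and the second has a q-value of 0.00219 in the authors' deposited table. Tnnc1 was at 8.77, 8.56, 33.7 and 16.2 FPKM, changes of 0.03 and 1.01. Tnnt3 was at 0.287, 1.73, 10.1 and 4.91 FPKM, changes of -1.08 and 0.91 that the authors' deposited table does not call. The alpha-actins differed less: Acta1 was at 17.3, 18.5, 98.7 and 70.6 FPKM, changes of -0.09 and 0.48. Actc1 was at 7.18, 8.74, 46.4 and 31.2 FPKM, changes of -0.25 and 0.56. Both actin genes had a gained site on the start and neither was called in the authors' deposited table.

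Myog was at 2.61 FPKM in DRRi, 10.2 in GFPi, 65.8 in pHAN_DRR1.2 and 26.3 in pHAN_GFP, changes of -1.64 and 1.29. The authors' deposited table calls both, at q-values of 0.00848 and 1.38e-08. Myod1, from whose enhancer the targeted RNA comes, was at 33.1, 37.7, 65.6 and 68.9 FPKM, changes of -0.18 and -0.07; the targeted RNA itself was not analysed here. Of the 4653 genes near a gained site 13 were 1.5-fold or more lower in DRRi and higher in pHAN_DRR1.2, with or without the limit on level, and of the 15715 genes with none 15 were without the limit. Of the 13, 7 had under 1 FPKM in DRRi and pass the limit there through GFPi. These 13 were Atp2a1, Dync1i1, Klhl30, Myl1, Mylpf, Myog, Myom2, Scml4, Sorcs2, Synpo2l, Tmem8c, Tnnc2 and Tnnt3, listed after their values were seen. Tmem8c, the gene of the fusion protein myomaker, was at 1.91, 7.01, 24.5 and 10.6 FPKM, changes of -1.46 and 1.14. Atp2a1, the calcium pump of the fast sarcoplasmic reticulum, was at 0.434, 1.68, 6.60 and 3.62 FPKM, changes of -0.90 and 0.72.

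Other genes near gained sites were lower in DRRi, most of them in that experiment alone. Heyl, a Notch target, had the lowest change, -1.82, at 1.33 FPKM in DRRi and 7.23 in GFPi, beside 10.7 in pHAN_DRR1.2 and 9.65 in pHAN_GFP. Igfbp5, an IGF binding protein with 4 gained sites, was at 237 in DRRi and 760 in GFPi, a change of -1.68, beside 741 and 787 in the overexpression pair. Dmp1, Olfm1 and Chrng, a subunit of the fetal acetylcholine receptor, had changes of -1.61, -1.39 and -1.39. Rbm24 was lower in both experiments, at 1.66 FPKM in DRRi, 7.25 in GFPi, 7.11 in pHAN_DRR1.2 and 12.6 in pHAN_GFP, changes of -1.63 and -0.74. Mest, an imprinted gene, was likewise lower in both, at 43.4, 119, 48.7 and 114 FPKM, changes of -1.43 and -1.22. The authors' deposited table calls all 7 lower in DRRi, and calls Rbm24 and Mest lower with pHAN_DRR1.2 too.

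On the higher side in DRRi, Akr1b3, an aldose reductase, had the largest change, 2.08, at 11.2 FPKM in DRRi and 1.89 in GFPi, and the authors' deposited table does not call it. It was 3.59 in pHAN_DRR1.2 and 6.05 in pHAN_GFP, a change of -0.62, the only gene near a gained site with this pair of directions at 1.5-fold. Eda2r, Sulf2, 9030617O03Rik and Ak1, an adenylate kinase, followed with changes of 1.95, 1.77, 1.68 and 1.61, all called in the authors' deposited table. The rest of the 10 highest were Fgf2, Trib3, Ddit4l, Rgs12 and Sh3bgrl2, with changes from 1.22 to 1.44. Cdkn1a, the cell cycle inhibitor p21, with a gained site of 89.7, was at 146 FPKM in DRRi and 71.1 in GFPi, a change of 1.03.

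With pHAN_DRR1.2 the other genes among the 10 highest were Alox5, Casq2, Dync1i1 and Vgll2, with changes of 1.29, 1.18, 1.17 and 1.16, each called in the authors' deposited table. Casq2 was at 3.01 FPKM in pHAN_DRR1.2 and 0.772 in pHAN_GFP. Lower than -0.8 were Plb1, St8sia2, Mest, Abat, Igdcc4, C1qtnf3, Fmo1, Fndc1, Tril and Igf1, the 10 lowest, with changes from -1.37 to -0.82. St8sia2, a polysialyltransferase, was at 6.83 FPKM in pHAN_DRR1.2 and 17.2 in pHAN_GFP, and Igf1 at 3.41 and 6.82. Abat and C1qtnf3 are the genes of these 10 that the authors' deposited table does not call.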

How the data were processed

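ChIP-seq of MyoD, MyoG and H3K4me1 and polyadenylated RNA-seq of C2C12 were used, with 1 sample per group; the ribosome-depleted myotube and satellite cell samples were not analysed here. The 3 peak lists of transcription factors come from MACS (per the file headers) and hold the authors' peak score; neither its definition nor the MACS version is given in the sources used here. The header of the myotube MyoD list names a run 2 and that of the MyoG list a number of tags, so whether either holds all reads of its sample is not known. The submitters' processing notes also list SICER, TopHat, bedtools and, as the build, mm9, with versions not given in the sources used here. H3K4me1 domains carry the authors' counts of ChIP and control reads and their fold, deposited with each domain. Expression tables hold the authors' FPKM for 24333 coding sequences and their deposited p-value and q-value; RNA read depths are unknown. Each table is tied by the labels to 2 samples; the condition that is not GFP has another name in the tables than in the labels and was taken as DRRi or pHAN_DRR1.2.

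From these, overlaps of 1 bp or more, distances and shares were computed with Python 3 libraries (numpy, pandas and scipy). FPKM was summed per symbol, and changes are log2 with a pseudocount of 1 for genes whose 2 libraries average at least 1 FPKM. Counts of list genes with no such limit were added after the data were seen. Nearby means within 10 kb of a locus. Named sites were the 10 of highest score, with ties ordered by the fold of the domain, and the 3 domains with most members, with the tie at 5 ordered by ChIP reads, an order chosen after the data were seen. Named genes were the 10 with most gained sites, the 10 highest and 10 lowest changes per experiment, and muscle list genes. The members and lists were chosen with earlier results of these data known. The functions were checked on simulated data. Promoter sequences are RefSeq's for GRCm38.p6. Alternatives for overlap, score, domain fold, distance, pseudocount and filter are given at the end.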

Additional observations from a re-analysis of the deposited data

How the results depend on the processing

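No paired analysis was possible because each group holds 1 sample, and for the same reason no replicate could be left out. Of 87 values recomputed under other settings, 67 stayed within 1.5 times the count or within the exact 95% interval of the value given above. Requiring a MyoD score of 100 or more gave a MyoG overlap of 75.3%, a median score of 232 and 29.5% with another gained site within 10 kb. Myotube domains of fold 3 or more left 4013 gained sites, with a MyoG overlap of 67.1%, a median score of 186, 69.6% within 10 kb of a locus, 2349 genes nearby and 25 of the 53 sarcomere genes. Members whose domain touched no myoblast domain, an alternative chosen after seeing the data, lay within 10 kb of a locus in 65.0%. MyoG overlap was 60.5% when 50% or more of the MyoD peak had to be covered. A limit of 50 kb gave 8643 genes nearby. With a pseudocount of 0.1, 6.74% of nearby genes were 1.5-fold higher and 5.005% lower in DRRi, and 2.21% higher and 1.45% lower with pHAN_DRR1.2, where all genes had 6.61%, 4.84%, 2.15% and 1.12%. A mean of 5 FPKM or more gave 3.897% higher in DRRi (all genes 3.86%), and no filter gave 3.20% higher and 2.47% lower (2.62% and 1.89%). The most abundant coding sequence gave 1.42% lower with pHAN_DRR1.2 (1.06%). Peak calls, domain calls and FPKM rest on 1 library each, so depth and library quality cannot be told apart from stage or treatment.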
